A study of Mus musculus with 22 samples.

Results

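The genes described here encode the proteins of the cytosolic ribosome. They were chosen by symbol: protein-coding genes named Rpl or Rps followed by a number, with Rplp0, Rplp1, Rplp2 and Rpsa added, and without Rpl22, Rpl22l1, the Rps6k kinases and pseudogenes. The rule found 82 genes among the 49671 gene identifiers in the files, 50 of the large and 32 of the small ribosomal subunit. Of these, 78 (46 large, 32 small) reached a CPM (read count scaled to library size) of 1 in at least 2 libraries and were tested. Rpl24, Rpl10l, Rpl39l and Rpl3l did not.

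The libraries came from whole cochleae of mice of a single genotype, PrestinCreERT2/+;RiboTagHA/+, given tamoxifen at 3 mg per 40 g of body weight before 21 days of age and at 9 mg per 40 g from then on. Tamoxifen activates a Cre recombinase that is expressed from prestin, in the cochlea a gene of outer hair cells, and Cre adds a haemagglutinin (HA) tag to the large-subunit protein made from Rpl22. RNA that came down with anti-HA antibody (IP) was compared with total RNA of the whole cochlea (input) at P8, P14, P28, 6 weeks (6wk) and 10 weeks (10wk). The design text calls the libraries biological replicates, and names P21 where the labels give P28. Each fraction had 2 libraries at each age and 3 at 10wk, 11 of each kind in all, and every group, inputs included, carried both alleles and received tamoxifen. Dose changed with age, and their effects cannot be told apart.

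Cytosolic ribosomes translate all mRNAs that nuclear genes encode. A large subunit, which forms peptide bonds, and a small subunit, which reads the mRNA, each join ribosomal RNA with a fixed set of proteins, most of them present as a single copy per ribosome. The mRNAs of nearly all these proteins, and of several translation factors, begin with a C followed by a run of pyrimidines, the terminal oligopyrimidine or TOP motif, through which the mTOR kinase and the RNA-binding protein LARP1 set how many of them are on ribosomes. In mammals almost every ribosomal protein gene has given rise to intronless processed pseudogenes, copies of its mRNA elsewhere in the genome.

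Some annotated start sites show the motif, which the choice by symbol did not use. RefSeq (GRCm38.p6) gave promoter entries for 62 of the 82 genes. At an annotated start, 13 of these 62 (21%) had a C followed directly by further C or T to a run of at least 5, against 3.01% of all 27025 genes with an entry. The letters below run 5′ to 3′ from 10 bases before the start, and the capitals mark the run from the first transcribed base on. They are shown because these 6 genes span the changes found within the 13: Rps21 was the lowest in IP relative to input, Rps10 and Rps27 the highest, and Rps6, Rplp2 and Rpl15 lay between.

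Rplp2, chr7:141447641-141447670, + strand: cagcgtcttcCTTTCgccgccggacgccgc
Rps6, chr4:86857348-86857377, - strand: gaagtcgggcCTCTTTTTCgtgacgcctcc
Rps21, chr2:180257369-180257398, + strand: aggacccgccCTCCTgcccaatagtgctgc
Rpl15, chr14:18270967-18270996, - strand: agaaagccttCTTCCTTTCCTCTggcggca
Rps10, chr17:27635225-27635254, - strand: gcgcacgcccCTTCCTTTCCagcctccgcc
Rps27, chr3:90213629-90213658, - strand: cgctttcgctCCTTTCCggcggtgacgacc

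A start annotated a few bases off would miss the motif, so that the 21% is a count of these letters at these starts only. A second feature of the entries was CGGAAG, searched on both strands of the 300 bases around the start, which 43 of the 62 entries (69.4%) held, against 18.8% of all genes. It is the core recognised by ETS-family transcription factors, and a match is a description of the letters.

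The whole series bears on these genes in 3 ways. Reads aligned to several places took 12.2 ± 3.97% of the IP and 25.8 ± 9.59% of the input libraries (SD, n = 11 each) and were counted to no gene. Reads outside genes took 32.9 ± 8.74% and 13.3 ± 2.66%, and Gm42418 took 58.3% of the gene reads of P8 input 2, so that levels are given here as CPM after trimmed-mean (TMM) scaling on gene reads. Libraries P8 input 2, P14 IP 1 and P28 IP 2 had 9853 to 10870 genes at 1 CPM or more, against 12393 to 15609 in the others, and stand apart. Of 8 outer hair cell markers 7 were higher in IP (summed level 395 to 1415, against 153 to 305 in input), and all 5 markers of red blood cells and all 5 of neutrophils were lower.

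Ribosomal protein mRNAs were lower in the pulled-down RNA than in the whole cochlea. The 82 genes together made up 0.224 ± 0.0408% of the reads counted to genes in IP libraries, against 0.487 ± 0.158% in inputs (SD, n = 11 each). Their summed level was 1307 to 3503 TMM-scaled CPM in IP, with a median of 1774, and 3874 to 7141 in input, with a median of 5088, and the ranges did not overlap. In limma on log2(TMM-scaled CPM + 1) over all ages, 46 of the 78 tested genes were lower and 5 higher at an adjusted p under 0.05, while 22.9% of all 18737 genes tested were lower and 20.5% higher. Without the 3 libraries that stand apart, 50 were lower and 6 higher. The median log2 change was -1.05 for the ribosomal protein genes and -0.01 for all genes. In bulk RNA of this kind, fewer cells of a type and less RNA per cell cannot be told apart. The markers of red blood cells summed to 64.6 to 923 in IP and 343 to 2062 in input, and those of neutrophils to 1.98 to 113 and 7.05 to 310. Markers of several other cell types were lower as well, 4 of 4 of the stria vascularis (summed 355 to 1416 in IP, 1143 to 2752 in input), 3 of 3 of macrophages (12.9 to 76.2, 65 to 115), 3 of 3 of Schwann cells (408 to 3699, 904 to 5610) and 3 of 4 of spiral ganglion neurons (49.2 to 1069, 80.3 to 1976). Other lists went both ways. Of 4 supporting cell markers 2 were lower and 1 higher (summed 366 to 1294 in IP, 458 to 2844 in input). Of 4 inner hair cell markers 1 was lower and 1 higher (202 to 460, 172 to 305). Markers of B lymphocytes summed to 1.61 to 76.6 in IP and 7.17 to 73.1 in input. No marker of these lists was at 0 in all libraries, and the part of any of these cells in the result was not tested.

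Rpl8 and Rpl4 had few reads at pseudogenes. Of all 50-base windows of the Rpl8 transcript, 93% differed from every other annotated transcript by more than 2 bases, and Rpl4 held 90.3% of the input and 88.4% of the IP reads counted to it and its closest pseudogenes together. Rpl8 (chr15:76904078-76906314, + strand), which lies beside the peptidyl transferase centre, was at 68.2 to 557 TMM-scaled CPM in IP (median 163) and 423 to 782 in input (median 476). P14 IP 1, at 557, was the only IP library above any input library, and the log2 difference of Rpl8 was -1.66 ± 0.18 (adjusted p = 1.52e-07 in limma). Rpl4 (chr9:64173375-64178666, + strand), which lines the exit tunnel of the large subunit, was at 75 to 198 in IP (median 98.7) and 288 to 517 in input (median 399). Every IP library of Rpl4 lay below every input library. Its log2 difference was -1.64 ± 0.15 (SE), 3.12-fold lower, with an adjusted p of 1.49e-08 in limma.

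**Figure D1:**
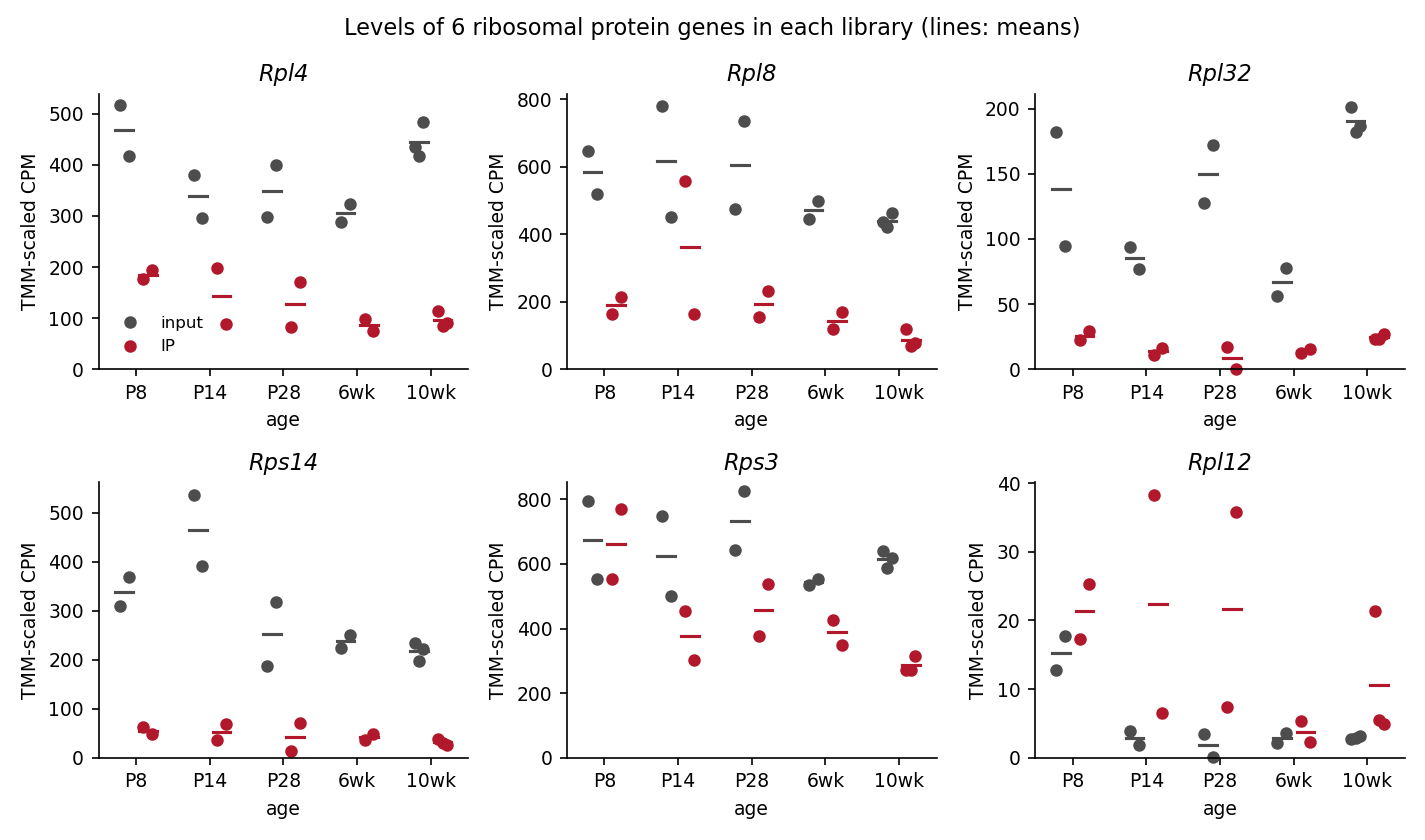
TMM-scaled CPM of 6 ribosomal protein genes (vertical axis, starting at 0) in each library by age (horizontal axis), input in grey and IP in red, with lines at group means. For Rpl4, Rpl32 and Rps14 the highest IP point lies under the lowest input point; Rps3 lay closer, and Rpl12 was low in both and higher in IP.

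The largest decreases were in Rpl32 and Rps14. Rpl32, a large-subunit surface protein, was at 0.39 to 29.6 TMM-scaled CPM in IP (median 16.8) and 56.4 to 202 in input (median 128), a log2 difference of -2.97 ± 0.29 (adjusted p = 3.21e-08 in limma). The lowest value was that of P28 IP 2, while P28 IP 1 was at 16.8. Rps14, a protein of the small subunit's platform, was at 13.8 to 71.3 in IP (median 38.3) and 188 to 537 in input (median 251), a log2 difference of -2.78 ± 0.21 (adjusted p = 7.38e-10 in limma). For both, no IP library reached the lowest input library. The next were Rps4x, an X-linked small-subunit gene (-2.58), Rps27l (-2.46), Rps21 (-2.44), Rpl7a (-2.09) and Rpl36al (-2.02).

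Rps3 had the highest mean level in input, and its decrease was small beside those of Rpl8, Rpl4 and Rps14, the next named genes by input level. It encodes a small-subunit protein at the mRNA entry channel that also takes part in DNA repair. It was at 271 to 770 TMM-scaled CPM in IP (median 375) and 500 to 825 in input (median 617), so that the ranges overlapped, and its log2 change was -0.61 ± 0.13 (limma adjusted p = 0.000496). Per kilobase of transcript, Rps21 (603), Rpl8 (524) and Rplp1 (461) led in input, and Rps3 (220), Rpl8 (182) and Rplp1 (166) in IP, all as mean TMM-scaled CPM per kilobase.

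**Figure D2:**
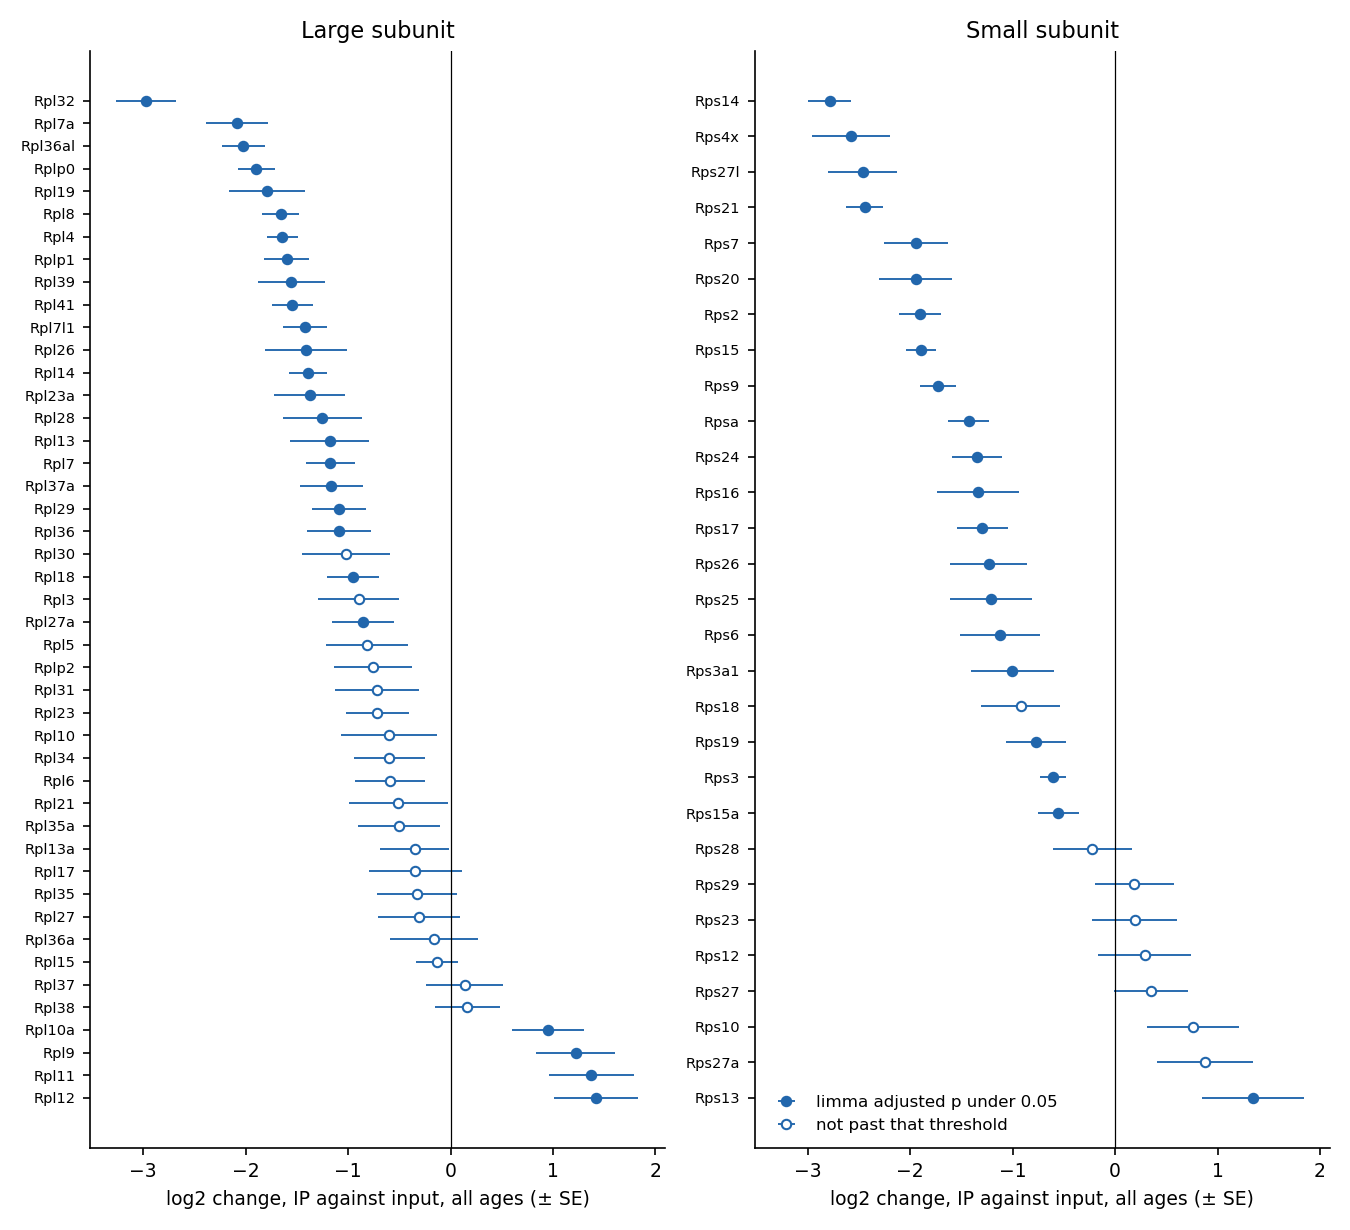
Log2 change of IP against input over all ages (horizontal axis, ± SE) for tested large-subunit (left) and small-subunit (right) genes, sorted by value. Filled points passed a limma adjusted p of 0.05: 23 lower and 4 higher in the large subunit, 23 lower and 1 higher in the small, a few of which are not drawn.

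Both subunits were lower, 23 of 46 large-subunit genes (median log2 change -0.92) and 23 of 32 small-subunit genes (-1.22); whether they differ was not tested. The summed level of the large subunit was 1031 ± 440 in IP and 2492 ± 584 in input, and of the small subunit 1033 ± 281 and 2746 ± 495 (SD, n = 11 each). A split by the level in input is only a description, since that level is itself a side of the comparison and favours lower calls among high genes. Of 41 genes at a mean of 20 TMM-scaled CPM or more in input, 38 were lower and none higher (limma). The other 3 were Rpl15 (-0.13), Rpl5 (-0.82) and Rpl6 (-0.59). Of the 37 genes below that level, 8 were lower and 5 higher. Neither share was above that of all genes tested (22.9% lower, 20.5% higher). Across the 78 genes, Pearson's r between the log10 mean input level and the log2 change was -0.74, with the same limit.

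The 5 genes that were higher in IP, Rpl12, Rpl11, Rps13, Rpl9 and Rpl10a, were all low in input, the value against which they were compared. Rpl12, part of the base of the P-stalk, was at 2.26 to 38.3 TMM-scaled CPM in IP (median 7.46) and 0.18 to 17.8 in input (median 3.14), a log2 difference of 1.42 ± 0.41 (adjusted p = 0.00719 in limma). Its highest IP values were in P14 IP 1 (38.3) and P28 IP 2 (35.8), both among the libraries that stand apart. Rpl11, Rps13, Rpl9 and Rpl10a had log2 changes of 1.37, 1.35, 1.22 and 0.95, with limma adjusted p from 0.0102 to 0.0315.

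Many reads that match these genes were counted at annotated pseudogenes. A 50-base window was taken as unique if no annotated transcript of another gene held it, with 2 mismatches allowed. The genome outside annotated transcripts was not searched. A median of 47.6% of the windows of a ribosomal protein transcript were unique, and in 61 of the 82 genes no window of the coding part was. The median gene shared coding windows with 14 annotated pseudogenes, and Rpl7a with 161. In all, 1328 pseudogenes in the files shared a coding window, 743 of them had at least 1 read, and their summed level exceeded that of the genes themselves: 1793 to 4574 TMM-scaled CPM in IP (median 2467) and 6432 to 11773 in input (median 9501). The 185 pseudogenes that passed the filter for testing had a median log2 change of -1.33 in IP against input. Of these, 122 were lower and 10 higher, against 22.9% and 20.5% of all genes tested. Whether such reads came from the gene's own spliced mRNA or from the pseudogene was not tested.

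**Figure D3:**
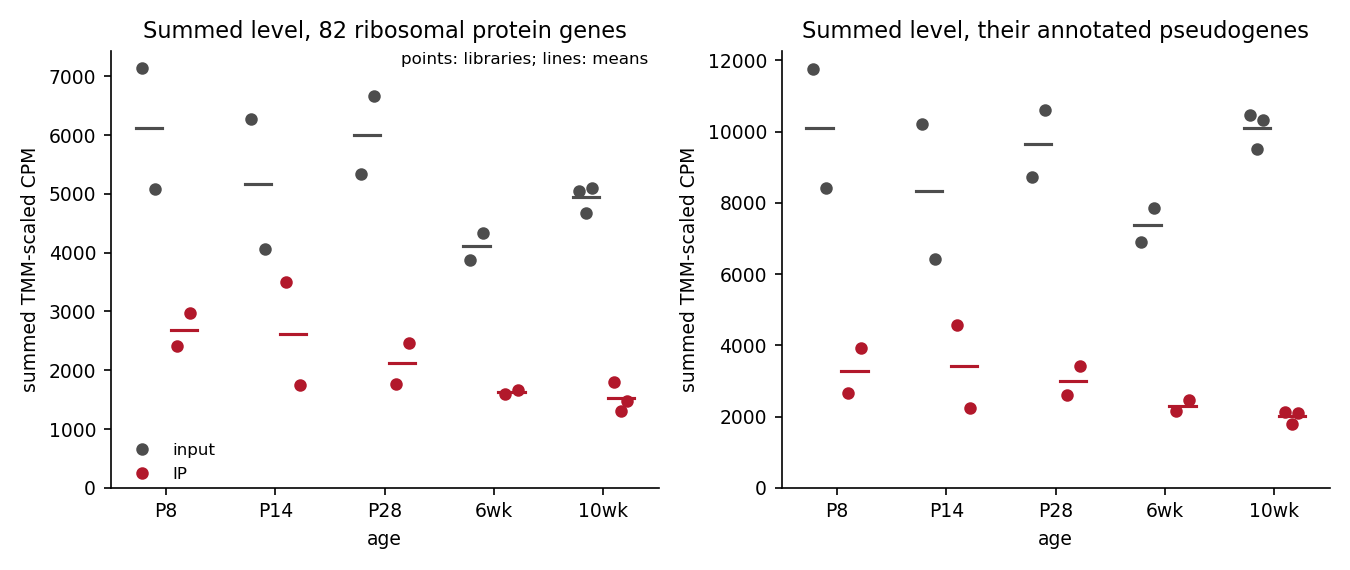
Summed TMM-scaled CPM (vertical axes, starting at 0) of the 82 genes (left) and of the 1328 pseudogenes that share coding windows with them (right), by age and library, with lines at group means. At each age every IP library lay below every input library in both panels.

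With each gene and its closest pseudogenes joined into 1 feature, an alternative chosen after the data were seen, more features passed. Of 79 joint features tested, Rpl24 now among them, 69 were lower in IP over all ages and none higher (background 22.6% and 20.9%), and the median log2 change was -1.63 (limma). In 77 of 79 the change was below 0. By subunit, 40 of 47 large-subunit and 29 of 32 small-subunit features were lower. The gene itself held a median of 25.6% of the joint input reads, and under 50% in 53 genes.

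All 5 genes that were higher on their own had a joint change below 0. The joint level of Rpl12 was 44.8 ± 24.4 TMM-scaled CPM in IP and 158 ± 32.8 in input (SD, n = 11 each), a log2 change of -1.90 ± 0.20 (limma adjusted p = 7.76e-08). The gene held 2.91% of these reads in input and 32.2% in IP. Rpl10a went to -1.54 and Rpl9 to -0.73, both past the threshold, while Rpl11 (-0.22, limma adjusted p = 0.347) and Rps13 (-0.43, 0.0786) were not. For Rpl11, 1 pseudogene, Gm10288, held most of the reads, with a mean of 147 TMM-scaled CPM in IP and 178 in input.

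Some genes had a larger decrease once joined with their pseudogenes. Rps28, a small-subunit protein whose own change was -0.22 (limma adjusted p = 0.666), had a joint level of 21.3 ± 5.92 in IP and 125 ± 24.3 in input and a log2 change of -2.50 ± 0.16 (limma adjusted p = 4.18e-11). Rps16 went from -1.34 alone to -2.68 joined, and Rpl14 from -1.39 to -2.24. The 10 joint features that did not pass were Rpl10, Rpl11, Rpl15, Rpl21, Rpl27, Rpl35a, Rplp2, Rps12, Rps13 and Rps27, and only Rps12 (0.21) and Rps27 (0.38) had a joint log2 change above 0. Both were low, Rps27 at 2.86 ± 2.32 in IP and 1.86 ± 1.46 in input.

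**Figure D4:**
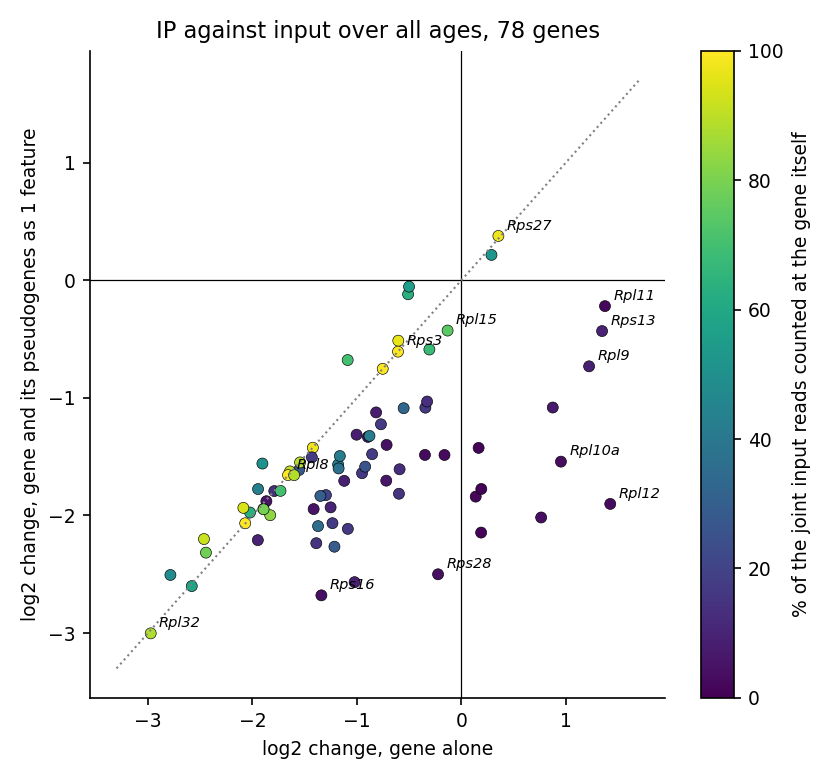
Log2 change of IP against input over all ages for 78 genes, the gene alone (horizontal axis) against the gene joined with its pseudogenes (vertical axis), coloured by the share of joint input reads counted at the gene, with a dotted line of equality. Genes with high shares lie on the line; Rpl12, Rpl11, Rpl10a, Rpl9 and Rps13, with shares under 10%, fall below 0 on the vertical axis.

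Of the 10 tested genes that held at least 90% of their joint input reads, 7 were lower and none higher (limma). Of all genes tested, 22.9% were lower and 20.5% higher. In IP the share of joint reads was lower for some of the 10, 65.5% for Rps27l and 80.2% for Rpl7a. Among the 7 were Rpl8, Rpl4, Rps3, Rpl7l1, Rps27l and Rpl7a, and the other 3 Rpl10 (-0.60), Rplp2 (-0.75) and Rps27 (0.35). Across the 78 genes on their own, which are not independent replicates, Pearson's r between the share of unique windows and the log2 change was 0.02.

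The P-stalk, formed by Rplp0, Rplp1 and Rplp2 on a base of Rpl12, recruits the elongation factors. Rplp0 was at 11.7 to 50.4 TMM-scaled CPM in IP (median 17) and 51.6 to 156 in input (median 71), a log2 difference of -1.89 ± 0.18 (adjusted p = 2.54e-08 in limma). Rplp1 was at 34.2 to 278 in IP (median 52.7) and 125 to 417 in input (median 228), a log2 difference of -1.60 ± 0.22 (adjusted p = 3.59e-06 in limma), and its highest IP value was again in P14 IP 1. Rplp2 was low in both, a log2 difference of -0.75 ± 0.38 (adjusted p = 0.115 in limma). For Rplp0 the highest IP library did not reach the lowest input library.

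Rpl5 and Rpl11 bind the 5S ribosomal RNA before it joins the large subunit, and outside the ribosome they bind the p53 regulator MDM2. On their own they lay apart, Rpl5 at -0.82 ± 0.40 (limma adjusted p = 0.103) and Rpl11 at 1.37 ± 0.42 (limma adjusted p = 0.0102). Rpl5 was at 229 in P14 IP 1 and between 0.216 and 25.9 in the other 10 IP libraries. Joined with their pseudogenes, they were at -1.12 (limma adjusted p = 4.84e-06) and -0.22 (0.347).

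Among small-subunit genes with known roles of their own, Rps6, the substrate of the S6 kinases downstream of mTOR, was lower (-1.12 ± 0.39 alone, limma adjusted p = 0.0243; -1.71 joined). Rpsa, also known as a laminin receptor, was at 7.15 to 41.3 in IP (median 17.9) and 29.1 to 76.7 in input (median 44.7), a log2 change of -1.43 ± 0.20 (limma adjusted p = 5.39e-06). Rps27a, whose product is ubiquitin fused to a ribosomal protein, was at 0.87 ± 0.47 alone (limma adjusted p = 0.137) and -1.08 joined (0.0312). Fau, a fusion to a ubiquitin-like protein, lies outside the rule and was lower (-1.43, limma adjusted p = 0.0198). Rack1, a scaffold on the small subunit, was lower (-1.42 ± 0.16, limma adjusted p = 2.18e-07), as was Rpl22 itself, the tagged gene (-0.89 ± 0.14, limma adjusted p = 1.27e-05), and its paralogue Rpl22l1 (-1.50, limma adjusted p = 0.00211).

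Several ribosomal proteins have a paralogue. Rpl36al, an intronless relative of Rpl36a, gave a median of 77.4% of the summed level of the pair in IP and 92.8% in input. Rps27l, a p53-inducible relative of Rps27, gave 75.5% and 95.6%, and Rpl7l1, a relative of Rpl7 that acts in ribosome assembly, 43.4% and 48.8%. The testis gene Rpl10l had no read in any library, the muscle gene Rpl3l had 27 reads in 1 IP library and 193 reads over 4 input libraries, and Rpl39l had 12 and 23 reads over all IP and all input libraries. The 3 expressed paralogues were lower in IP, Rps27l at -2.46 (0.0709 to 26.3 in IP, 18.7 to 59 in input), Rpl36al at -2.02 and Rpl7l1 at -1.42.

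Genes were called lower at each age, but the counts depended on the scaling and on single libraries. At P8, 13 genes were lower and none higher (background 4.52% and 6.11%); at P14, 16 lower and 2 higher (8.03% and 9.65%); at P28, 29 lower and 1 higher (12.6% and 9.69%); at 6wk, 15 lower and none higher (4.09% and 4.01%); and at 10wk, 21 lower and 1 higher (9.15% and 5.99%), by limma. Rps14, Rps21, Rpl32, Rplp0, Rps15, Rps9 and Rpl4 were among the genes lower at all 5 ages. With CPM as deposited, the counts were 0 at P8, 7 at P14, 16 at P28, 0 at 6wk and 13 at 10wk. With 1 library left out, they were 3 to 11 at P8 (3 without P8 input 1), 5 to 20 at P14 (5 without P14 input 1) and 3 to 8 at 6wk (3 without 6wk IP 2). Each of these fits left out a library of the age itself, so that 1 group held 1 library. Joined with their pseudogenes, 52 of 79 were lower at P8, 38 at P14, 59 at P28, 51 at 6wk and 64 at 10wk. The backgrounds were 5.23%, 8.23%, 12.8%, 4.38% and 8.84%. With CPM as deposited, the joint counts were 0 at P8 and at 6wk, 17 at P14 and 25 lower at P28, and the median of all features moved to 0.75 at P8 and 0.28 at 6wk.

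**Figure D5:**
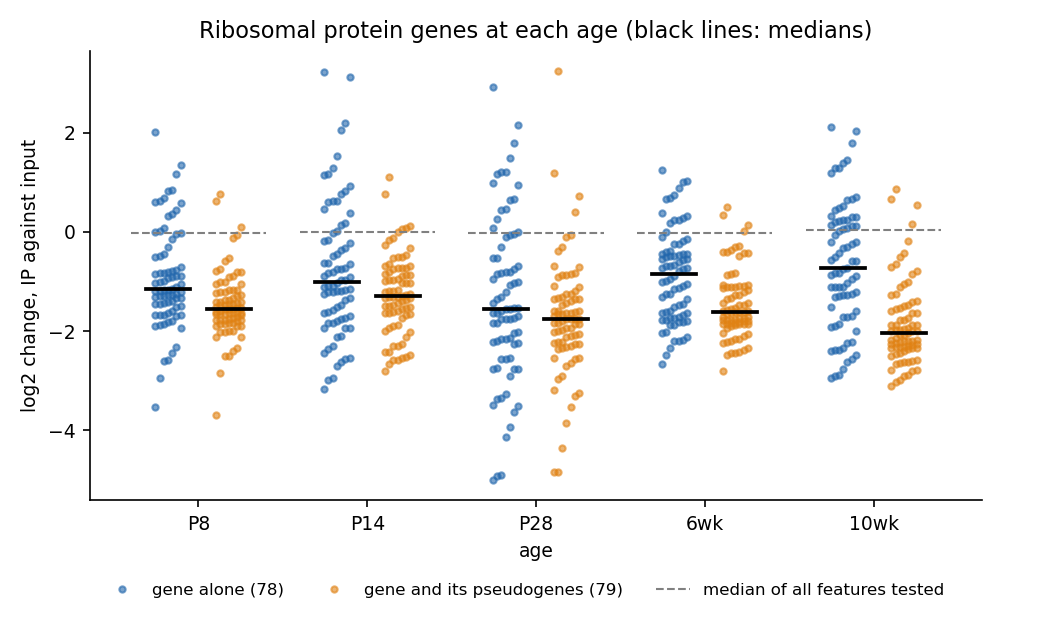
Log2 change of IP against input (vertical axis) at each age (horizontal axis) for 78 genes alone (blue) and 79 joint features (orange), with black lines at medians and grey dashes at the median of all features tested. At every age both medians lie below the grey line, from -0.73 (alone, 10wk) to -2.04 (joint, 10wk).

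The called genes with the largest decreases differed in part by age. At P8 they included Rps27l (log2 change -3.54), Rpl19 (-2.94), Rps14 (-2.60) and Rpl32 (-2.31), and at P14 Rps14 (-3.17), Rpl36al (-2.94) and Rpl7a (-2.71). Among called genes at 6wk they were Rps14 (-2.48), Rps21 (-2.19), Rplp0 (-2.19) and Rpl32 (-2.17), and at 10wk Rps21 (-2.94), Rpl32 (-2.91) and Rps14 (-2.76). The gene higher at 10wk was Rpl10a, at 26.1, 18.9 and 19.3 TMM-scaled CPM in IP and 3.33, 5.31 and 4.85 in input.

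Within all 5 ages, every IP library lay below every input library of that age for 17 genes (background 6.91%), among them Rps14, Rps21, Rpl4, Rpl14, Rpl32, Rplp0 and Rpsa. No gene lay above in all 5 (background 4.8%). For joint features the count was 44 of 79 (background 7.2%).

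At P28 the largest changes rested partly on low counts. Rps7 was at 0.402 and 0.0866 TMM-scaled CPM in the IP libraries and at 37.6 and 39.3 in input, a log2 change of -5.00 ± 0.72 (limma adjusted p = 8.92e-05). Rpl7a was at 8.61 and 0.39 against 110 and 109, and Rpl32 at 16.8 and 0.39 against 128 and 172. In each the lower IP value was that of P28 IP 2. Rpl12 was higher at P28, at 7.46 and 35.8 in IP and 3.53 and 0.18 in input, and Rps12, as a joint feature, at 17.7 and 29.2 against 3.06 and 0.554 (background 10% higher). In both the higher IP value was that of P28 IP 2, among the libraries that stand apart. Rps12 itself had 322 and 0 reads in the P28 IP libraries, so that the 29.2 came from reads at pseudogenes alone.

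At P14, Rpl11 and Rps29 were higher in IP, Rpl11 at 23 and 11.6 against 0.205 and 1.82. Rps29, a zinc-binding small-subunit protein, was at 31.6 and 4.77 in IP and 0.103 and 1.24 in input at P14, and at 0.0574 and 0 against 16 and 5.6 at P28, where it was lower. For both genes the higher IP value at P14 was that of P14 IP 1, among the libraries that stand apart. The lower input value, in P14 input 1, rested on 6 reads for Rpl11 and 3 for Rps29. An F test of limma for a difference in enrichment among the 5 ages, chosen after the data were seen, called none of the 78 genes (background 0.0907%); 10 were at an unadjusted p under 0.05, led by Rpl7a (adjusted p = 0.0792) and Rps29 (0.116). Rpl7a was at 3.07 to 4.85 in the 10wk inputs and at 57.5 to 110 in all younger inputs.

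With age, the IP level of a few ribosomal protein genes was lower. Taking P28, 6wk and 10wk together against P8 and P14, 6 of 78 genes were lower in IP and none higher (background 6.15% and 4.54%, limma), a share close to that of all genes. Among them were Rplp1 (-1.17), Rpsa (-1.05), Rps2 (-0.99), Rplp0 (-0.87) and Rpl8 (-0.85). Rpsa was at 20 to 41.3 TMM-scaled CPM in the 4 younger IP libraries and 7.15 to 21.2 in the 7 older ones. Joined with pseudogenes, 14 of 79 were lower (background 6.44%), led by Rplp0 (-1.30 ± 0.20, limma adjusted p = 0.000256) and Rps2 (-1.27 ± 0.22). The joint level of Rplp0 was 115, 166, 99.1 and 64.4 in the younger IP libraries and 30.5 to 58.5 in the older. Markers of other cells moved with age in IP too: all 4 of spiral ganglion neurons were higher at the older ages (median log2 change 1.67, summed 49.2 to 758 younger and 538 to 1069 older), 2 of 3 of Schwann cells were higher, and 2 of 4 of fibrocytes and mesenchyme were lower (median -1.57, summed 4479 to 10499 younger and 1070 to 3021 older). Their part in the result was not tested. Both counts fall to 0 with CPM as deposited; leaving out P14 IP 2 raises them to 21 and 30, and leaving out P8 IP 2 lowers them to 0 and 3.

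In input, 3 of 78 genes were lower at the older ages, among them Rpl17 (-2.28) and Rps2 (-1.04), and none higher (background 2.22% and 3.68%, limma). Rps2, a small-subunit protein near the mRNA entry channel, was at 65.3 to 128 TMM-scaled CPM in the 4 younger input libraries and at 21.7 to 90.4 in the 7 older ones, so that the ranges overlapped. Its joint change was -0.32 (limma adjusted p = 0.516). Rpl17 likewise went to 0.50 joined. Of the joint features, only Rplp0 (-0.80) and Rpsa (-0.68) were lower in input (background 2.59%).

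The difference between IP and input did not change detectably between the younger and older ages. No gene alone (background 0.171%) and no joint feature (0.199%) passed in limma, with 10 of 78 genes at an unadjusted p under 0.05, and edgeR and DESeq2 also called none. The genes with the largest values were Rps29 (-2.31) and Rps25 (-2.30) downward and Rpl17 (2.52) and Rps23 upward. Leaving out P14 IP 2 gave 5 genes and 12 joint features, and leaving out P28 IP 1 gave 6 and 6.

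Other mRNAs with TOP motifs and translation factors moved the same way. Of 23 genes on a list of translation factors and other TOP mRNAs, which includes Rack1 and Fau, 17 were lower in IP and none higher over all ages (limma; median log2 change -1.29), against 22.9% and 20.5% of all genes. Eef1a1, the elongation factor that brings aminoacyl-tRNA, was at 319 ± 109 TMM-scaled CPM in IP and 1298 ± 260 in input (SD, n = 11 each), a log2 change of -2.02 ± 0.13, and Eif3h, a subunit of initiation factor 3, was at -2.07. Pabpc1, the poly(A)-binding protein (0.08, limma adjusted p = 0.686), and Nap1l1 (-0.02) did not pass. Of 28 ribosome biogenesis genes, 13 (46.4%) were lower and 1 higher (median -0.68): Nhp2, of the H/ACA pseudouridylation complex, was at -2.21, Rrs1, a large-subunit assembly factor, at -1.65, and Ubtf, a transcription factor of the ribosomal RNA genes, at 0.60.

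Genes of the mTOR pathway gave another pattern, 10 of 17 higher (58.8%) and 4 lower (23.5%), where 20.5% and 22.9% of all genes were (median log2 change 0.73, limma). Ddit4, a stress-induced inhibitor of mTOR complex 1, was at 71.1 to 1144 TMM-scaled CPM in IP and 81.8 to 202 in input (2.20 ± 0.22, limma adjusted p = 4.92e-08), and Sesn2, another inhibitor, was at 1.87 ± 0.35. Rheb, the GTPase that activates the complex, was lower (-1.42), as was Akt1 (-0.94). Larp1, which binds TOP mRNAs, was higher (1.26).

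Other sets of housekeeping genes were lower as well, against 22.9% of all genes. Of the mitochondrial ribosomal protein genes, 46 of 76 tested were lower (median -0.98), of nuclear-encoded respiratory chain genes 67 of 79 (-1.65) and of proteasome subunits 30 of 39 (-1.13). Among all 14866 tested protein-coding genes, those with a coding length under 600 bases had a median log2 change of -0.52 (1847 genes, 41.5% lower) and those over 1200 bases 0.11 (8791 genes, 17.7% lower). The 53 tested ribosomal protein genes under 600 bases had a median of -0.95 (52.8% lower) and the 25 longer ones of -1.18 (72% lower). The part of transcript length in the result was not tested.

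By start site, the 13 genes with the pyrimidine run had 5 lower and none higher (median log2 change -0.55). The 45 other tested genes with a RefSeq entry had 27 lower and 5 higher (-1.0035), and the 20 without an entry 14 lower (-1.24). Over all genes tested, 22.9% were lower and 20.5% higher. Within the 13, Rps21 (-2.44) and Rpl14 (-1.39) had the lowest changes and Rps10 (0.76, limma adjusted p = 0.177) and Rps27 (0.35) the highest. These counts describe genes counted alone, and Rps10 was at -2.02 with its pseudogenes joined.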

How the data were processed

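RNA of 11 IP and 11 input libraries was sequenced after a directional library preparation, per the labels' protocols. The authors deposited CPM per gene. Per the submitters' processing notes, TopHat and GRCm38 were used. How reads were counted, and with which strand setting, is not given in the sources used here. The CPM gave whole reads for 100% of values (tolerance 0.01 reads), with 30757875 to 71023032 reads per library. Entries naming no gene were left out.

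CPM were rescaled with TMM factors (edgeR 4.0.16) over gene reads, and log2(TMM-scaled CPM + 1) was fitted with limma 3.58.1 (R 4.3.3) to 10 group means, with a trended prior, for genes at 1 CPM or more in at least 2 libraries. P-values were adjusted by Benjamini-Hochberg over all 18737 genes in each of 9 comparisons, at a threshold of 0.05. On the pseudocount scale the change of low genes is understated. Count tests on the recovered reads (edgeR quasi-likelihood and DESeq2 1.42.0) called 43 and 47 of the ribosomal protein genes over all ages, 40 and 42 of them lower. Pseudogenes were assigned by 50-base windows of the coding part shared within 2 mismatches. The genes and lists were chosen with earlier results of these data known. Named were the 8 called genes with the largest change each way over all ages, the 4 in other comparisons (2 where none was called), the 5 highest in input, the P-stalk and 5S genes, Rps6, Rpsa, Rps27a, paralogue pairs and the 2 largest called each way of each list; genes named in joint features or by start site, Rpl6, Larp1, Pabpc1 and Nap1l1 were chosen after their values were seen. The fits were tested on simulated data, drawn from 1 common mean profile without differences between ages. For each factor 100 of 19548 genes were changed, all at a mean CPM of 5 or more. Far more genes were called in the real data, and some ribosomal protein genes lay below that level. The shares that follow hold for the simulated setting and may differ for these genes. Over all ages, 39% of genes made to differ by a factor of 2 were called, and 80% at a factor of 4. Within single ages, a factor of 2 gave 0% at P8, P14 and P28, 2% at 6wk and 6% at 10wk. A factor of 4 gave from 21% (P28) to 38% (10wk). Of unchanged genes, 0.0517% were called over all ages. A gene not called at a single age may thus still differ. Comparisons of older with younger ages were not simulated. Some genes that the naming rule covers are counted but not reported by name here. At 10wk the replicate numbers in the sample titles may pair IP and input, since deviations from the group means correlated at 0.11, 0.172 and 0.214 in the 3 pairs. Such a pairing comes from the data, as the labels give only the number. The main fit held no term for pairing at any age, so the 10wk results above do not use it. A fit with age and replicate number as a block was run as an alternative.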

Additional observations from a re-analysis of the deposited data

How the results depend on the processing

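These counts are of ribosomal protein genes called by limma unless another tool is named; for each, the cause was not tested. With CPM as deposited they were 0 at P8, 7 at P14, 16 at P28, 0 at 6wk and 13 at 10wk, and 0 for older against younger ages in IP and 0 in input. Joint features then gave 0 at P8, 17 at P14, 26 at P28, 0 at 6wk, and 0 and 0 with age in IP and input. Quantile scaling gave 23 at P8, 25 at 6wk and 9 with age in input, and CPM over gene reads without Gm42418 and mitochondrial genes gave 2 with age in IP. Without the 3 libraries that stand apart, counts were 25 at P8, 25 at 6wk and 7 with age in input, and joint features 8 and 4 with age in IP and input. Fits on the libraries of 1 age alone gave 2 at P8, 0 at P14, 0 at P28, 30 at 6wk and 43 at 10wk. DESeq2 gave 7 with age in input. Joint features gave 52, 38, 60, 51 and 64 by age and 14 with age in IP.

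Leaving out each library in turn gave 45 to 54 genes over all ages, 3 to 11 at P8, 5 to 20 at P14, 22 to 34 at P28, 3 to 8 at 6wk, 16 to 21 at 10wk, 0 to 21 with age in IP, 1 to 4 with age in input and 0 to 6 for the change of enrichment. Joint features gave 67 to 71, 12 to 44, 19 to 48, 42 to 56, 14 to 21, 56 to 59, 3 to 30, 0 to 3 and 0 to 12 in the same order. Over all ages and for the change of enrichment, each of the 22 libraries was left out. With age in IP or input only the 11 of that fraction were, and at single ages only those of that age. At P8, P14, P28 and 6wk, 1 group was thereby left with 1 library. The lowest counts came without P8 input 1 at P8, without P14 input 1 at P14 and without 6wk IP 2 at 6wk.

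At P8, P14, P28 and 6wk the replicate numbers were not taken as pairs, since each age had only 2 pairs. Same-numbered IP and input libraries correlated at 0.0776 at P8, 0.0991 at P14, 0.0403 at P28 and 0.304 at 6wk, the last above each value at 10wk. With 2 libraries per group, the correlation with the other number is by calculation the negative of the same-number value. These values therefore cannot decide whether the numbers pair the libraries. With the replicate block, 52 genes were called over all ages, 48 of them lower, and 16, 18, 32, 14 and 25 by age, all within 1.5 times the counts without it.

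Rpl36a, not called (-0.16), went to 0.0397 with deposited CPM, 0.36 without the 3 libraries, 0.026 in edgeR and 0.10 in DESeq2, and from -0.55 (without P28 IP 1) to 0.22 (without P28 IP 2) when 1 library was left out. Joined with pseudogenes, Rps27a went to -1.08, Rpl10a -1.54, Rpl12 -1.90, Rpl9 -0.73, Rpl11 -0.22 and Rps13 -0.43. Fold changes of genes at a few CPM are limited by depth, and with 2 libraries per group single libraries move the counts at each age.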
